A study of Mus musculus with 24 samples.

Results

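Livers of Tsc1 L-/- mice were compared with livers of control mice after a 24 h fast, over every gene of the read count table. Of 35275 genes in the table, 13641 passed the filter on low counts and were tested, and 8 of the 24 libraries of the series, 4 per genotype, carry the comparison. Of the genes tested, 906 (6.64%) differed between the genotypes, 568 (4.16%) higher and 338 (2.48%) lower in Tsc1 L-/- livers. The rises included lysosomal enzymes, members of the mTORC1 pathway and target genes of Atf4, and the falls included target genes of Pparα, enzymes of fatty acid oxidation and genes of pericentral hepatocytes.

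All mice were chow-fed C57BL/6 males, 8 to 10 weeks old. The Tsc1 L-/- mice carry floxed Tsc1 alleles deleted by Cre under the albumin promoter, which is active in hepatocytes, so other cells of the liver keep the gene. Controls are labelled wild type, whereas the study's methods describe littermates with floxed Tsc1 and Cpt2 alleles. Further libraries are labelled Cpt2 L-/-, for loss in liver of the mitochondrial enzyme that frees long-chain fatty acids from carnitine, and DKO, for loss of both genes, 4 of each. These 8 libraries were part of the fit, and DKO against Cpt2 L-/- livers gave a second comparison of Tsc1 loss that shares no library with the first. The libraries of PPAR-a KO and Cpt2L-/- Ppara KO mice entered only an alternative fit.

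Tsc1, with Tsc2 and Tbc1d7, forms the complex that keeps the small GTPase Rheb in its inactive state. Active Rheb switches on mTORC1, a kinase complex at the lysosomal surface that promotes protein and lipid synthesis, restrains autophagy, and is turned down in a fasted liver. Amino acids reach mTORC1 through the Rag GTPases, and their sensors include members of the sestrin and Castor families. Transcription factors of the MiT/TFE family drive genes of the lysosome through E-box sequences, Atf4 drives amino acid synthesis, and Pparα drives fatty acid oxidation and ketogenesis in fasting.

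Levels are given as CPM, the counts scaled to a common total per library, after TMM normalization over 16 libraries, and differences as log2 fold changes of edgeR with their standard errors (SE). A gene passed when its adjusted p-value in edgeR's quasi-likelihood test, adjusted by the Benjamini-Hochberg method, was under 0.05. Total counts were 17066401 to 18657651 in control and 14763846 to 17501550 in Tsc1 L-/- libraries. Values per library are listed from replicate 1 to replicate 4. On the first principal component of the 8 libraries, with 31.5% of the variance, controls lay between -34.3 and -27.4 and Tsc1 L-/- livers between 22.1 and 42.1. On the second, with 19.3%, Tsc1 L-/- replicate 3 stood apart at 52.3, the next library being control replicate 3 at 19.1. Without Tsc1 L-/- replicate 3, 967 genes passed, and without control replicate 3, 583 passed. The share of counts on mitochondrially encoded genes was 3.78% to 5.04% in control and 4.91% to 6.82% in Tsc1 L-/- libraries, and its part in the results was not tested. The labels do not say how the mice were distributed over litters, so p-values measure the spread between these livers.

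**Figure D1:**
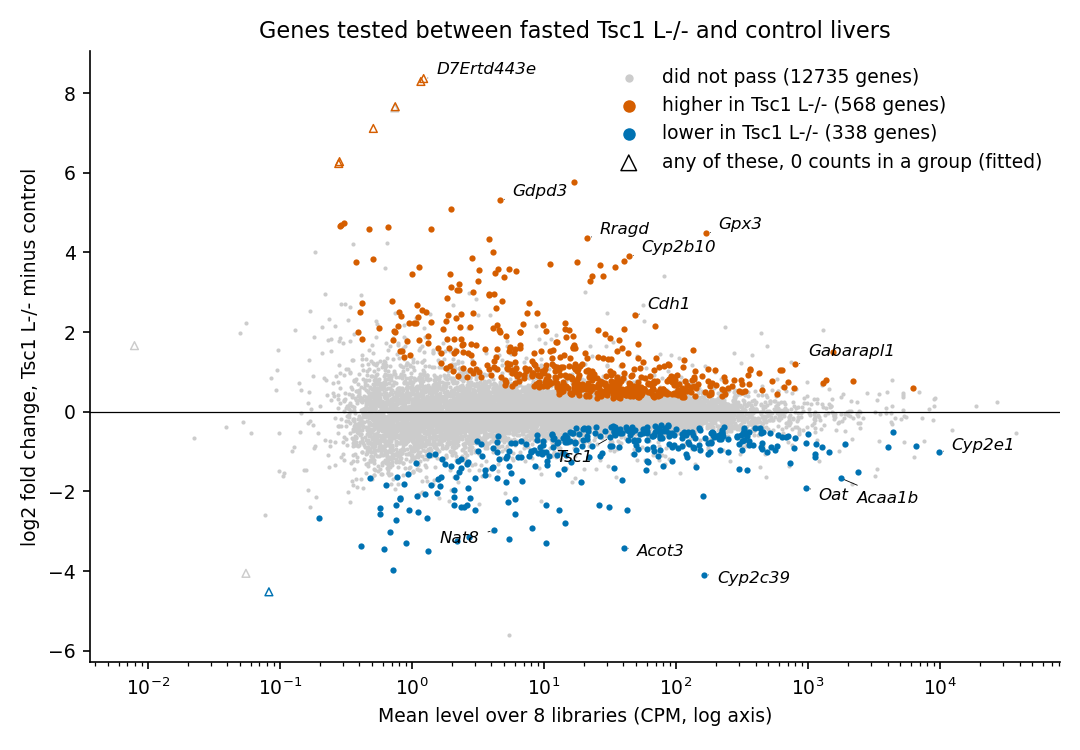
Mean level of each of 13641 genes over the 8 libraries (CPM, log axis) against its log2 fold change in Tsc1 L-/- minus control livers, each point being a gene. The 568 genes that passed and were higher include Rragd at 4.36 and Gpx3 at 4.47, and the labelled falls range from Tsc1 at -0.65 to Cyp2c39 at -4.09. Open triangles are genes with 0 counts in all libraries of a group, such as D7Ertd443e, whose height is a fitted value and no measured fold.

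Levels of the deleted gene come before the rest. Tsc1 (ENSMUSG00000026812) spans bases 28641228 to 28691167 of chromosome 2 in GRCm38. It stood at 39.5, 37.6, 37.6 and 40.4 CPM in the control libraries. In Tsc1 L-/- livers it was at 18.3, 29.2, 25.8 and 25.9 CPM, below every control. This is a log2 fold change of -0.65 (SE 0.13, edgeR adjusted p = 0.00491). Reads on the exons that remain are counted with the rest, as are those from cells without Cre, so a residual level is not a measure of the deletion. Tsc1 fell further between DKO and Cpt2 L-/- livers (-1.52, SE 0.13, edgeR adjusted p = 1.1e-06), and the difference between both effects, an interaction term, passed (-0.87, SE 0.18, edgeR adjusted p = 0.0168). The counts of Cpt2 do not show its deletion. It stood at 103, 102, 105 and 88.9 CPM in control, 94.4, 105, 80.5 and 89.1 CPM in libraries labelled Cpt2 L-/- and 85.4, 105, 81.9 and 120 CPM in those labelled DKO, all of which overlap. Reads on remaining exons are counted here too, so these counts do not check the labels, and both groups are named as labelled. The study itself reports loss of the Cpt2 protein in its models by Western blot of fasted livers. The partners of Tsc1 did not pass. Tsc2, the GTPase-activating subunit, had a log2 fold change of 0.21 (SE 0.12, edgeR adjusted p = 0.343), and Tbc1d7 one of 0.24 (SE 0.19, edgeR adjusted p = 0.519). Among genes around the deleted locus, 0 of 15 others within 1 Mb passed, and 13 of 168 (7.74%) did within 5 Mb, close to the share of 6.27% on chromosome 2 as a whole.

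Of 41 members of the mTORC1 pathway tested, 9 (22%, where 4.16% of all genes did) rose and 1 (2.44%, where 2.48% did), Tsc1 itself, fell, and their median log2 fold change was 0.26, against 0.01 over all genes tested. Rragd (ENSMUSG00000028278), on chromosome 4 from 32983037 to 33022180, encodes one of the Rag GTPases that bring mTORC1 to the lysosome. It was at 1.9, 1.31, 2.03 and 2.58 CPM in control and 60.4, 48.9, 20.4 and 32.9 CPM in Tsc1 L-/- livers, 20.6-fold higher (log2 fold change 4.36, SE 0.29, edgeR adjusted p = 5.9e-07). The groups were far apart, and the lowest Tsc1 L-/- library stood several times above the highest control. Sesn3, of the sestrin family, was at 5.02, 5.31, 7.12 and 5.39 CPM in control and 24.7, 15.8, 22.9 and 13.4 CPM in Tsc1 L-/- livers (1.75, SE 0.22, edgeR adjusted p = 0.000116). Gatsl2, also known as Castor2, a relative of the arginine sensor Castor1, rose by 1.26 (SE 0.2, edgeR adjusted p = 0.00112), from 4.1 to 5.2 CPM in control to 8.25 to 15 CPM in Tsc1 L-/- livers. These 3 genes did not overlap between the genotypes, as 12.1% of all genes tested did not. For Rragd, 1 of the largest rises, the rule of choice required it.

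The other rises in the pathway were smaller. Eif4ebp1, which encodes the translation repressor that mTORC1 phosphorylates, rose by 0.77 (SE 0.16, edgeR adjusted p = 0.00759), with 46.5 to 59.7 CPM in control and 76.3 to 111 CPM in Tsc1 L-/- livers. Fnip2, a partner of folliculin in the regulation of RagC and RagD, rose by 0.9, Deptor, which encodes an inhibitory subunit of mTOR complexes, by 0.5, and Rragc by 0.47. Sesn2 and Ulk1, the latter a kinase that starts autophagy, also passed, at 1.17 and 0.5. Calls of Deptor, Sesn2 and Ulk1 were lost in some of the 8 fits that each left out 1 library, and passed in 5, 2 and 3 of them. The kinase gene Mtor itself was at -0.23 (edgeR adjusted p = 0.409), Rptor at -0.06 (edgeR adjusted p = 0.851) and Rheb at -0.24 (edgeR adjusted p = 0.148). With all 24 libraries in the fit, 6 of the members passed.

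Genes of the lysosome rose without exception among those that passed. Of 62 hydrolases and membrane proteins tested, 21 were higher (33.9%, where 4.16% of all genes were), 0 lower, and 0 were lower at an unadjusted p under 0.05 either. Their median log2 fold change was 0.3. Gm2a, a lipid-binding cofactor of ganglioside breakdown, was at 62.7, 77.4, 64.4 and 70.4 CPM in control and 343, 152, 178 and 136 CPM in Tsc1 L-/- livers (1.56, SE 0.23, edgeR adjusted p = 0.000657). All 4 Tsc1 L-/- livers lay above all controls, and replicate 1 was the highest.

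Enzymes from other branches of lysosomal breakdown also rose. Ctsz, a cathepsin, rose from 242 to 323 CPM in control to 468 to 641 CPM in Tsc1 L-/- livers (0.96, SE 0.14, edgeR adjusted p = 0.000263). Neu1, the lysosomal sialidase, rose from 46.4 to 54.1 CPM to 72.9 to 92.6 CPM (0.78, SE 0.11, edgeR adjusted p = 0.000224). Ctsa, whose product protects Neu1, rose by 0.64 (SE 0.1, edgeR adjusted p = 0.000659). The others of the 21 included Gusb, Acp5, Hexa, Tpp1, Npc2, Galns, Ctsb, Ctns, Lamp1, Ctsl, Galc, Ppt1, Gla, Arsb and Mcoln1, a calcium channel of the lysosomal membrane. Of these, Ppt1 and Gla passed in 4, Arsb in 3 and Mcoln1 in 2 of the 8 fits without 1 library. The list lost few calls on leaving out 1 library, with 18 to 22 members passing, and 13 passed when only the 8 libraries were fitted.

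Of 17 subunits and accessory proteins of the proton pump that acidifies the lysosome, 5 (29.4%, where 4.16% of all genes did) rose and 0 fell, 16 had a log2 fold change above 0, and the median was 0.32. Atp6v1d was at 34.5, 34.9, 35.6 and 36.4 CPM in control and 48.9, 43.5, 62.8 and 48.2 CPM in Tsc1 L-/- livers (0.52, SE 0.11, edgeR adjusted p = 0.00772). Atp6v1e1 rose by 0.48 (SE 0.11, edgeR adjusted p = 0.0123) and Atp6v0b by 0.56 (SE 0.14, edgeR adjusted p = 0.0226). Atp6ap2 and Atp6v0e also passed, but in 4 and 0 of the 8 fits without 1 library, and Atp6v0b passed in 6 of them. The changes were small, and the count was 3 without control replicate 1, 2 or 3 or Tsc1 L-/- replicate 1. With 24 libraries in the fit only Atp6v1d of the named subunits passed, and 1 passed in all.

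Of 42 autophagy genes, 2 (4.76%) were higher, close to the 4.16% of all genes tested, and 0 lower, with a median of 0.12. Gabarapl1, an Atg8 family member of the autophagosome membrane, was at 478, 504, 489 and 489 CPM in control and 1319, 1081, 983 and 1081 CPM in Tsc1 L-/- livers, 2.28-fold higher (1.19, SE 0.12, edgeR adjusted p = 1.5e-05). No control overlapped with a Tsc1 L-/- liver, and the controls differed little among themselves. The other was Ulk1, described above. The transcripts of the MiT/TFE factors did not pass. Tfeb was at 0.18 (edgeR adjusted p = 0.677), Tfe3 at -0.23 (edgeR adjusted p = 0.383) and Mitf at 0.43 (edgeR adjusted p = 0.217). These 3 genes and Mtor, Rptor and Rheb are outside the rule for named genes and were chosen for their roles after their values were seen.

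Promoters of the genes that rose were searched for the E-box, here the palindrome CACGTG, in the window from 250 bases before to 50 after the RefSeq start site. RefSeq on GRCm38.p6 gave a promoter for 9916 of the genes tested, for 428 of the higher and 238 of the lower ones. An E-box was in 11.6% of the windows of genes tested, 18.7% of those of higher genes and 10.1% of those of lower genes. Among lysosomal genes it was in 14 of 48 (29.2%), and among the lysosomal genes that rose in 5 of 17 (29.4%), a similar share. The longer palindrome TCACGTGA, which contains the E-box and was chosen after the data were seen, was in 2.15% of windows of genes tested, in 24 of 428 (5.61%) of higher genes and in 1 of 238 (0.42%) of lower genes. The same windows were searched for the C/EBP-ATF element TGATGCAAT and for a direct repeat of AGGTCA, spaced by 1 base, with 1 mismatch allowed. The element was in 3 of 37 Atf4 targets and 1 of 7 of those that rose, beside 0.161% of genes tested. The repeat was in 1.64% of higher and 2.1% of lower genes, beside 0.585% of genes tested, and in 0 of 22 Pparα targets that fell. A match describes the letters only, and no test was made of these shares. Windows around the longer palindrome, in capitals, are shown for 5 genes of the lysosome that rose: Ctsa, Gla and Mcoln1 of the list, and Mfsd1, a lysosomal transporter, and Dpp7, a lysosomal peptidase, which were chosen after their values were seen. Each is read 5′ to 3′ on the strand of its gene and ends before the start site.
Ctsa, chr2:164833734-164833772, plus strand: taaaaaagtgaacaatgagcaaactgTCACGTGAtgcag
Mfsd1, chr3:67582671-67582730, plus strand: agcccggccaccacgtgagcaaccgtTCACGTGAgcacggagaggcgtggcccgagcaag
Dpp7, chr2:25356373-25356432, minus strand: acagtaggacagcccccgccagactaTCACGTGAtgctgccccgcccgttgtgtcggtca
Gla, chrX:134601167-134601226, minus strand: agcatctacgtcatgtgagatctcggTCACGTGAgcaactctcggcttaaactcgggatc
Mcoln1, chr8:3500447-3500506, plus strand: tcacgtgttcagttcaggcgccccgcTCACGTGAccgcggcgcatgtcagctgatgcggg
The palindrome is 13 to 6 bases before the start site in Ctsa, 71 to 64 in Mfsd1, 74 to 67 in Dpp7, 195 to 188 in Gla, whose window holds it also at 228 to 221, and 46 to 39 in Mcoln1. The log2 fold changes of these genes were 0.64 for Ctsa, 0.69 for Mfsd1, 0.75 for Dpp7, 0.85 for Gla and 0.55 for Mcoln1. Mfsd1, which holds the palindrome 3 times in its window, was at 104, 119, 107 and 118 CPM in control and 211, 158, 195 and 159 CPM in Tsc1 L-/- livers. Dpp7 was at 27.2, 29.0, 22.2 and 26.6 CPM in control and 54.5, 37.5, 40.7 and 43.4 CPM in Tsc1 L-/- livers. Both genes separated the genotypes.

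Target genes of Atf4 rose in part. Of 38 tested, 8 (21.1%, where 4.16% of all genes were) were higher and 1 (2.63%, where 2.48% were) lower, with a median of 0.53. Asns, which makes asparagine, was at 7.34, 7.38, 1.09 and 3.86 CPM in control and 59.5, 109, 8.76 and 27.6 CPM in Tsc1 L-/- livers, 10.5-fold higher (3.4, SE 0.7, edgeR adjusted p = 0.0122). Psat1, of serine synthesis, was at 0.184, 0.414, 0.416 and 1.7 CPM in control and 17.7, 7.74, 2.32 and 5.44 CPM in Tsc1 L-/- livers (3.59, SE 0.69, edgeR adjusted p = 0.00772). Nupr1, a stress-responsive chromatin protein, was at 0.644 to 1.61 CPM in control and at 30.2, 3.73, 4.38 and 6.96 CPM in Tsc1 L-/- livers (3.54, SE 0.75, edgeR adjusted p = 0.0128). All 3 genes separated the genotypes, with a wide spread among Tsc1 L-/- livers, and Asns and Psat1 were lowest in replicate 3 of these. Psat1, at 3, 6, 8 and 29 counts in control, would not have reached the filter on low counts by the control libraries alone, so its place among the genes tested rests on groups in which it is high.

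The other rises were Eif4ebp1, Chac1, which degrades glutathione, Sesn2, Pck2, the mitochondrial form of the enzyme that makes phosphoenolpyruvate, and Slc3a2, a subunit of amino acid exchangers. The gene that fell was Stc2, which encodes a secreted glycoprotein, at -3.02 (SE 0.8, edgeR adjusted p = 0.0288). Stc2 passed in 3 of the 8 fits without 1 library and would not have reached the filter by the Tsc1 L-/- libraries alone, and Chac1, Pck2 and Slc3a2 in 2. Atf4 itself was at 73.4 to 78.7 CPM in control and 85.8 to 104 CPM in Tsc1 L-/- livers, without overlap but short of the threshold (0.3, SE 0.17, edgeR adjusted p = 0.328). Trib3, another Atf4 target, stood at 245 CPM in Tsc1 L-/- replicate 1 and at 17.3 to 35.6 CPM in the other 3 Tsc1 L-/- livers (2.44, SE 0.7, edgeR adjusted p = 0.0582). Both Atf4 and Trib3 were picked with their values in view. The count of members that passed varied from 4 without control replicate 3 to 10 without Tsc1 L-/- replicate 3, was 5 without control replicate 1, 2 or 4 or Tsc1 L-/- replicate 1, and was 2 with only the 8 libraries in the fit. Of aminoacyl-tRNA synthetases of the cytosol, several of which are Atf4 targets, 1 of 23 (4.35%, where 6.64% of all genes did) passed, Dars, at -0.4 (SE 0.1, edgeR adjusted p = 0.0228), and the median was -0.06. The call of Dars held in 5 of the 8 fits without 1 library and was lost with the 8 libraries alone and with all 24.

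Target genes of Pparα were among the falls. Of 52 canonical targets tested, 25 (48.1%, where 2.48% of all genes were) were lower and 1 was higher. Of the 52, 50 had a log2 fold change below 0, whereas only 49.2% of all genes did, and the median was -0.78. This set was written with earlier results of these livers known. Acaa1b (ENSMUSG00000010651), on chromosome 9 from 119148023 to 119157093, encodes a peroxisomal thiolase. It was at 1815, 2857, 2860 and 3188 CPM in control and 1064, 680, 666 and 967 CPM in Tsc1 L-/- livers, 3.17-fold lower (-1.67, SE 0.21, edgeR adjusted p = 0.000106). Pex11a, which drives the division of peroxisomes, was at 166, 201, 244 and 207 CPM in control and 57.5, 65.2, 93.3 and 96.5 CPM in Tsc1 L-/- livers (-1.39, SE 0.18, edgeR adjusted p = 0.000166). All controls lay above all Tsc1 L-/- livers for both.

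The fall included both compartments of fatty acid oxidation. Most of the lower genes in these lists, such as Slc25a20, Acadm, Ech1 and Eci2, are also among the Pparα targets and are counted there too. Of 27 peroxisomal genes tested, 11 (40.7%, where 2.48% of all genes were) were lower and 0 higher, with a median of -0.52, and of 31 mitochondrial genes 12 (38.7%) were lower and 1 higher, with a median of -0.38. Acadm, the medium-chain acyl-CoA dehydrogenase, was at 657, 748, 822 and 742 CPM in control and 360, 442, 254 and 458 CPM in Tsc1 L-/- livers (-0.97, SE 0.17, edgeR adjusted p = 0.0021). Slc25a20, which carries acylcarnitines into the mitochondrion, was at 224, 243, 227 and 233 CPM in control and 144, 128, 111 and 163 CPM in Tsc1 L-/- livers (-0.76, SE 0.13, edgeR adjusted p = 0.0015). These genes separated the genotypes, as did Ech1 at -0.94, Eci2 at -0.8, Decr1 at -0.8 and Acaa2 at -0.66, enzymes that handle double bonds or cleave the chain. Cpt1a, the rate-controlling step of mitochondrial entry, did not pass (-0.42, SE 0.18, edgeR adjusted p = 0.187) and overlapped between the groups.

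The single gene of these lists that rose was Cpt2, at 103, 102, 105 and 88.9 CPM in control and 150, 121, 120 and 175 CPM in Tsc1 L-/- livers. Its log2 fold change was 0.51 (SE 0.14, edgeR adjusted p = 0.0374), and the call held in 2 of the 8 fits without 1 library and was lost with 24 libraries (edgeR adjusted p = 0.521). Of 9 ketogenesis genes tested, 4 (44.4%, where 2.48% of all genes were) were lower and 0 higher, while 5 had a log2 fold change above 0 and the median was 0.07. The median of the list by library overlapped, at -0.16 to 0.14 in control and -0.25 to 0.2 in Tsc1 L-/- libraries, in log2 CPM relative to the control mean. Acat1, a thiolase that condenses acetyl-CoA, fell by 0.89 (SE 0.19, edgeR adjusted p = 0.00805) and Bdh1, which makes beta-hydroxybutyrate, fell by 0.84 (SE 0.21, edgeR adjusted p = 0.0239). Both genes separated the genotypes. The call of Bdh1 held in 4 of the 8 fits without 1 library, and on its opposite strand lies Gm15743, which was also lower (-2.42).

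Some Pparα targets were scattered among Tsc1 L-/- livers, with replicate 3 lowest. Ehhadh, the bifunctional enzyme of the peroxisome, was at 2052, 4153, 2665 and 4510 CPM in control and 1831, 1106, 145 and 724 CPM in Tsc1 L-/- livers (-1.81, SE 0.54, edgeR adjusted p = 0.0609). Cyp4a14, a fatty acid omega-hydroxylase, was at 6652 to 10699 CPM in control and 5890, 4290, 524 and 5098 CPM in Tsc1 L-/- livers (-1.13, SE 0.46, edgeR adjusted p = 0.165). Neither passed, although all controls lay above all Tsc1 L-/- livers for both. In the same library, Srebf1, a lipogenic factor, was at 339 CPM, against 23.9 to 41.5 CPM in the other 3 Tsc1 L-/- livers. The part of this library in the results was measured by leaving it out, and 29 Pparα targets then passed. Ppara itself was at 219 to 280 CPM in control and 140 to 257 CPM in Tsc1 L-/- livers, with overlap (-0.4, SE 0.18, edgeR adjusted p = 0.205). Ehhadh, Cyp4a14, Cpt1a, Srebf1 and Ppara were chosen after their values were seen.

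These counts depend on which libraries share the fit. Between 17 (without control replicate 2 or 3) and 29 Pparα targets passed when 1 library was left out, 9 with only the 8 libraries and 8 with all 24. The mitochondrial list had 6 without control replicate 4, 8 without control replicate 2 or 3, 5 with only the 8 libraries and 3 with all 24, and ketogenesis had 2 and 0 in these 2 fits. Slc25a20, Eci2, Decr1, Ech1 and all 4 ketogenic genes were among the calls lost with 24 libraries, whereas Acaa1b, Pex11a, Acadm and Acaa2 passed there.

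**Figure D2:**
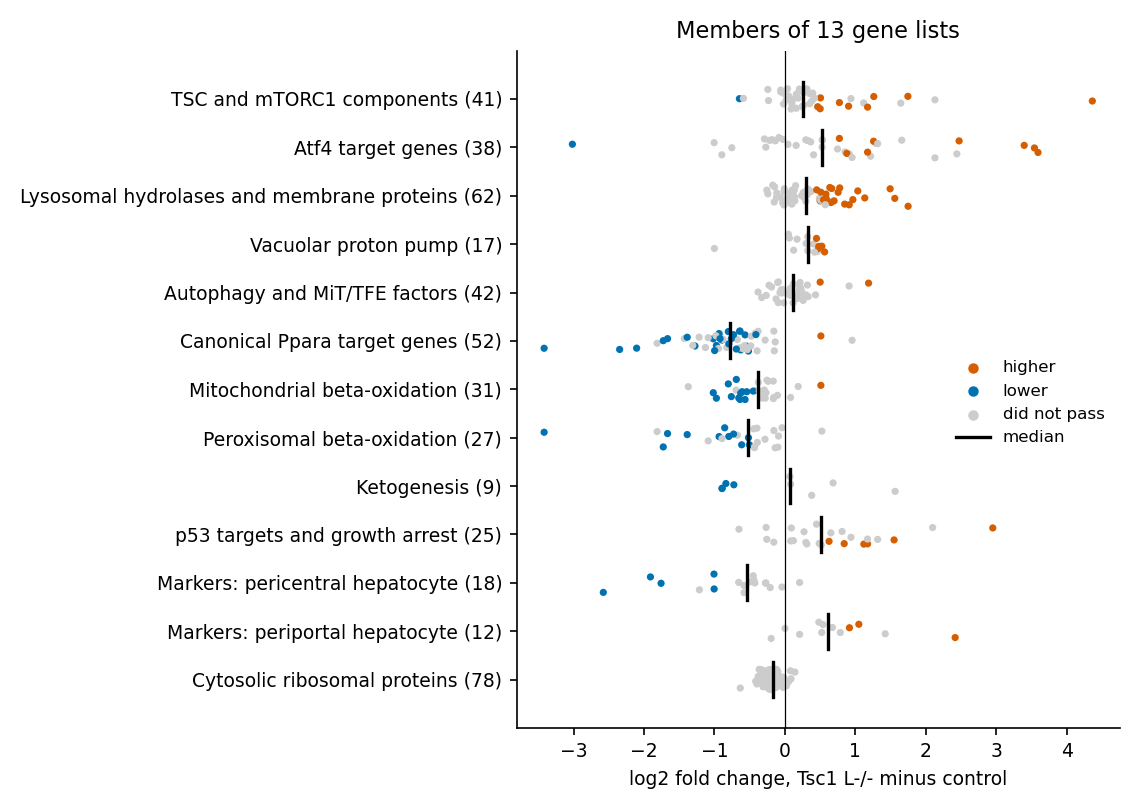
Log2 fold change in Tsc1 L-/- minus control livers of each tested member of 13 gene lists, 1 point a gene, with the number of members in parentheses and the median as a bar. Medians of the lysosomal, proton pump and Atf4 lists lie at 0.3, 0.32 and 0.53, and those of the Pparα, mitochondrial and peroxisomal lists at -0.78, -0.38 and -0.52.

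Taken by library, several lists separated the genotypes. The median over Pparα targets of the difference from the control mean, in log2 CPM, was -0.23 to 0.11 in control libraries and -0.69, -0.88, -1.13 and -0.53 in Tsc1 L-/- libraries. For lysosomal genes it was -0.1 to 0.05 in control and 0.34, 0.29, 0.23 and 0.28 in Tsc1 L-/- libraries. The Atf4 list was at 1.05 in Tsc1 L-/- replicate 1 and at 0.13 to 0.4 in the other 3, against -0.07 to 0.09 in controls. The mTORC1, proton pump, both oxidation and p53 lists also did not overlap between the genotypes. Some lists share members, such as Sesn2 in the mTORC1, Atf4 and p53 lists, so they are not independent. Ribosomal protein genes overlapped, and none of 78 passed, with a median of -0.17. At an unadjusted p under 0.05 in edgeR 0 were higher and 11 (14.1%) lower, where 11.8% of all genes tested were higher and 9.24% lower. The pericentral list overlapped, at -0.25 to 0.08 in control and -0.91, -1.06, -0.28 and -0.22 in Tsc1 L-/- libraries, as did the periportal list, at -0.47 to 0.49 in control and 0.4 to 1.11 in Tsc1 L-/- libraries.

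**Figure D3:**
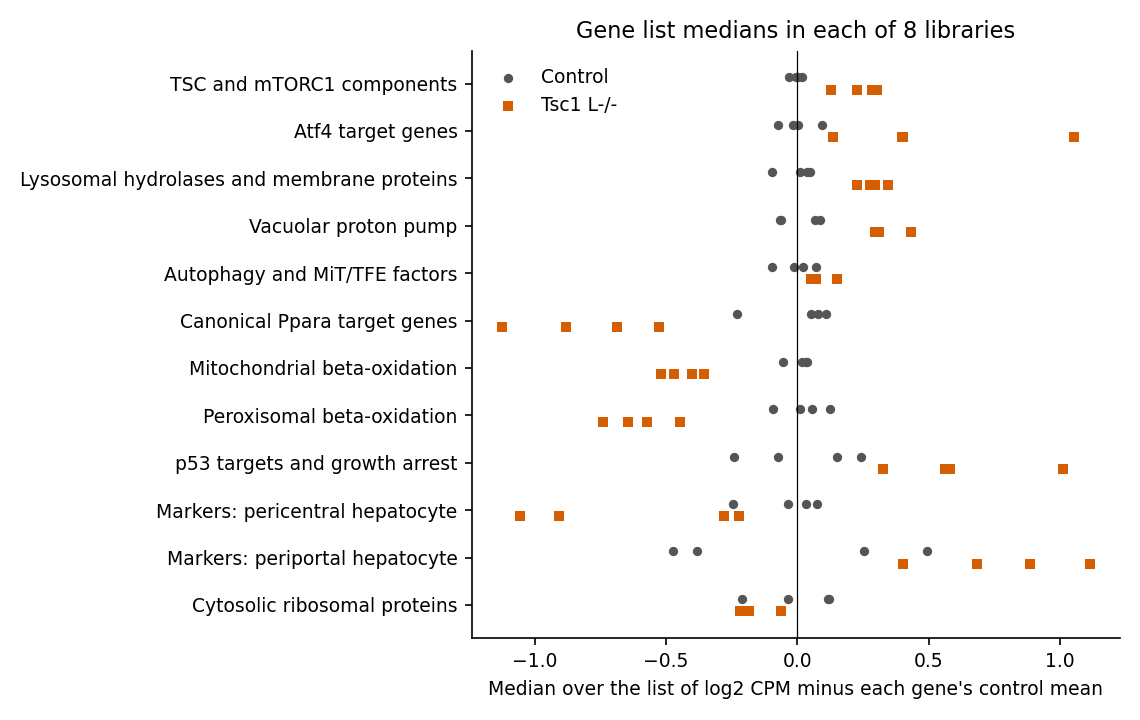
Median over each of 12 gene lists of the log2 CPM of a library minus the gene's mean in control libraries, with 1 point for each of the 4 control and 4 Tsc1 L-/- libraries. The Tsc1 L-/- libraries lie between 0.23 and 0.34 for lysosomal genes and between -1.13 and -0.53 for Pparα targets, outside the range of the controls.

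The 12 largest rises and 12 largest falls were picked for their fold change and for groups that do not overlap, so that both restate the choice. D7Ertd443e had 0 counts in all 4 control libraries and 3.49, 3.32, 0.773 and 2.22 CPM in Tsc1 L-/- livers. Against a floor of 3 counts per library it was at least 13.6-fold higher. Wdr52 likewise had 0 counts in control and 1.59, 5.25, 2.13 and 0.38 CPM in Tsc1 L-/- livers, at least 12.9-fold higher. Gdpd3, a lysophospholipase D, was at 0.245, 0.069, 0.26 and 0.293 CPM in control and 6.74, 8.16, 12.8 and 8.61 CPM in Tsc1 L-/- livers (5.31, SE 0.42, edgeR adjusted p = 8.5e-07). Bex2 was at 0, 0.069, 0 and 0.351 CPM in control, on average under the floor, and between 1.42 and 4.35 CPM in Tsc1 L-/- livers (edgeR adjusted p = 0.000162), and no fold is given. These 4 genes passed the filter on low counts through the groups in which they are high. The same limit holds for 123 of the 906 genes that passed, which had fewer than 4 libraries past the filter's 0.583 CPM in the lower group. Among the named genes they are 17, these 4 with Fam107a, Epdr1, Lrp2, Cyp46a1, Psat1 and Igf2bp3 of the rises, and Myom3, Tnnt2, Nat8, Lamc3, Slc22a28, Slc22a3 and Hsd3b5 of the falls.

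Gpx3 (ENSMUSG00000018339), on chromosome 11 from 54902453 to 54910377, encodes the secreted glutathione peroxidase of plasma. It was at 13.8, 16.9, 16.6 and 10.9 CPM in control and 597, 365, 146 and 187 CPM in Tsc1 L-/- livers, 22.2-fold higher (4.47, SE 0.47, edgeR adjusted p = 8.2e-05). Cyp2b10, the cytochrome P450 best known as a target of the nuclear receptor Car, was at 7.22, 9.87, 1.35 and 3.98 CPM in control and 81.2, 115, 95.4 and 39.4 CPM in Tsc1 L-/- livers (3.9, SE 0.64, edgeR adjusted p = 0.00307). Lrp2, the endocytic receptor megalin, rose from 0.234 to 1.17 CPM to 4.43 to 14.3 CPM (4.0, SE 0.61, edgeR adjusted p = 0.000796). Cyp46a1, cholesterol 24-hydroxylase, was at 1.77, 0.276, 5.98 and 1.41 CPM in control and 11.6, 23.9, 55.7 and 42.0 CPM in Tsc1 L-/- livers (3.77, SE 0.67, edgeR adjusted p = 0.00472). Col5a2, a fibrillar collagen chain, was at 202 CPM in Tsc1 L-/- replicate 1 and 22.7 to 47.1 CPM in the others, against 4.47 to 8.27 CPM in control (3.77, SE 0.64, edgeR adjusted p = 0.00357). Epdr1 rose by 4.34 (SE 0.65, edgeR adjusted p = 0.0011). Fam107a was at 119 CPM in Tsc1 L-/- replicate 2 and 3.16 to 8.28 CPM in the others, and its call held in 4 of the 8 fits without 1 library (5.77, SE 1.35, edgeR adjusted p = 0.0237).

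Among the largest falls were enzymes and transporters of hepatocytes. Acot3, a peroxisomal thioesterase, was at 28.2, 40.4, 126 and 101 CPM in control and 5.95, 1.31, 2.84 and 17.4 CPM in Tsc1 L-/- livers (-3.42, SE 0.76, edgeR adjusted p = 0.018). It lies in a cluster of similar genes and overlaps an antisense gene that also fell, and the strand setting of the counting is not stated. Nat8, an acetyltransferase, was at 5.57, 7.25, 9.36 and 7.55 CPM in control and 0.307, 0.553, 2.06 and 0.823 CPM in Tsc1 L-/- livers (-2.98, SE 0.48, edgeR adjusted p = 0.00127). Elovl3, which elongates saturated fatty acids, was at 68.6, 86.7, 70.0 and 63.7 CPM in control and 7.91, 8.71, 4.77 and 31.0 CPM in Tsc1 L-/- livers (-2.46, SE 0.48, edgeR adjusted p = 0.00799). Slc17a8, a vesicular glutamate transporter, was at 12.5 to 26.4 CPM in control and 2.45 to 5.67 CPM in Tsc1 L-/- livers (-2.48, SE 0.28, edgeR adjusted p = 4.3e-05).

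Some genes of the extracellular matrix and of muscle were also on the list of falls, whereas the collagen gene Col5a2 was among the largest rises. Lamb3 and Lamc3, laminin chains, fell by 2.79 (SE 0.54, edgeR adjusted p = 0.0082) and by 2.39 (SE 0.36, edgeR adjusted p = 0.000577). Tnnt2, the troponin T of heart muscle, was at 0.795, 4.69, 10.9 and 3.1 CPM in control and 0.415 to 0.696 CPM in Tsc1 L-/- livers (-3.14, SE 0.62, edgeR adjusted p = 0.00508), and Myom3, of the sarcomere, fell by 3.5 (SE 0.68, edgeR adjusted p = 0.00412), from 5.75, 2.21, 0.572 and 1.29 CPM in control. Myh11, the myosin of smooth muscle, was at 1.41, 14.7, 38.6 and 7.91 CPM in control, lowest in replicate 1 and highest in replicate 3 like Tnnt2 and unlike Myom3, against 1.59 to 5.82 CPM in Tsc1 L-/- livers, and did not pass (-2.24, SE 0.74, edgeR adjusted p = 0.0931). The part of muscle RNA in these falls was not tested. Lipg, endothelial lipase, and Slc22a28, of the organic ion transporters, passed in 5 and 6 of the 8 fits without 1 library. The lowest fold change belonged to Cyp2c39, at 170, 421, 198 and 450 CPM in control and 63.2, 3.94, 1.74 and 3.61 CPM in Tsc1 L-/- livers (-4.09, SE 0.96, edgeR adjusted p = 0.024). Its call held in 4 of the 8 fits, with an adjusted p of 0.0551 without control replicate 4, and reads may be shared with other Cyp2c genes.

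**Figure D4:**
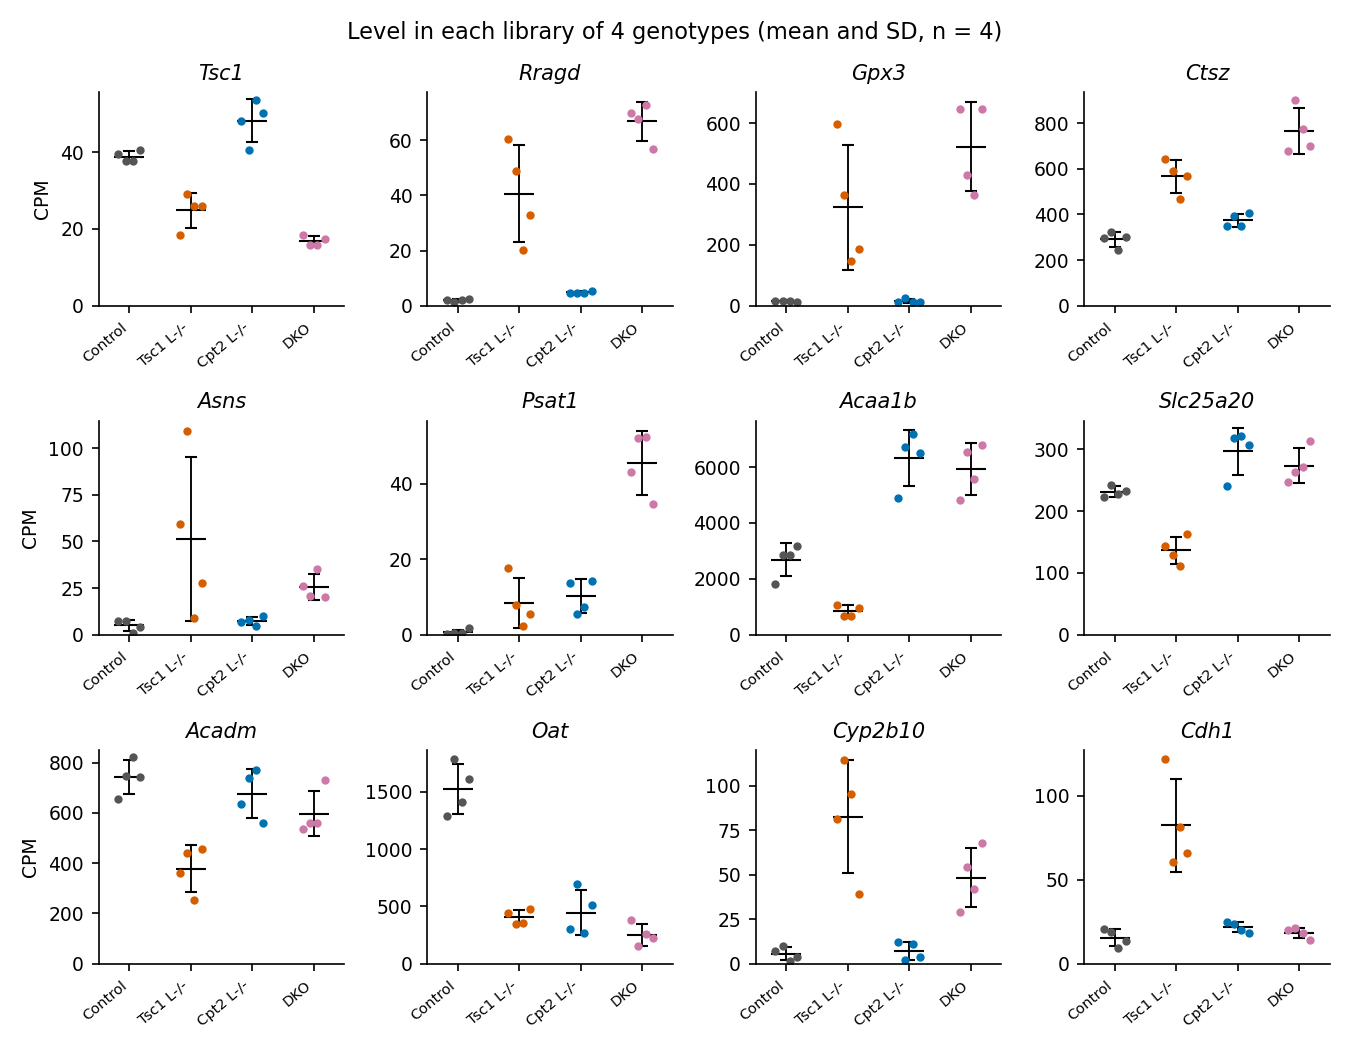
CPM of 12 genes in each of 16 libraries, by genotype, with the mean and SD of 4 libraries as a bar. Libraries are grouped as labelled. Rragd, Gpx3 and Ctsz were higher in Tsc1 L-/- and DKO livers than in control and Cpt2 L-/- livers, whereas Acaa1b was at 844 CPM on average in Tsc1 L-/- and 2680 CPM in control livers, and Cdh1 was high in Tsc1 L-/- livers alone, at 82.3 CPM on average.

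Hepatocytes differ along the lobule, from the portal to the central vein. Of 18 pericentral markers tested, 5 (27.8%, where 2.48% of all genes were) were lower and 0 higher, with a median of -0.54, and of 12 periportal markers 3 (25%, where 4.16% were) were higher and 0 lower, with a median of 0.61. Oat (ENSMUSG00000030934), ornithine aminotransferase, on chromosome 7 from 132557475 to 132576398, was at 1294, 1785, 1415 and 1615 CPM in control and 446, 344, 359 and 478 CPM in Tsc1 L-/- livers, 3.75-fold lower (-1.91, SE 0.29, edgeR adjusted p = 0.00088). Cyp2e1, an ethanol-metabolizing P450, was at 12802, 12858, 13470 and 13395 CPM in control and 4651, 7217, 6013 and 8257 CPM in Tsc1 L-/- livers (-1.01, SE 0.19, edgeR adjusted p = 0.0027). Slc22a3, an organic cation transporter, fell by 2.58 (SE 0.47, edgeR adjusted p = 0.00357), Lgr5, a receptor for R-spondins, which strengthen Wnt signalling, by 1.76 (SE 0.4, edgeR adjusted p = 0.0119), and Rhbg, an ammonium channel, by 1.0 (SE 0.28, edgeR adjusted p = 0.0362). The call of Rhbg held in 2 of the 8 fits without 1 library, and with 24 libraries 3 pericentral markers passed. Glul, the glutamine synthetase of the last layer of hepatocytes around the vein, was at 1106 to 1828 CPM in control and 717 to 1295 CPM in Tsc1 L-/- livers, with overlap (-0.43, SE 0.19, edgeR adjusted p = 0.212), and was chosen after its values were seen.

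On the periportal side, Cdh1, E-cadherin, was at 20.4, 18.6, 9.05 and 13.8 CPM in control and 122, 60.4, 81.2 and 66.1 CPM in Tsc1 L-/- livers, 5.34-fold higher (2.42, SE 0.25, edgeR adjusted p = 2.7e-05). Cyp2f2, a periportal P450, rose from 317 to 494 CPM to 613 to 1086 CPM (1.05, SE 0.19, edgeR adjusted p = 0.0021). Gls2, the glutaminase of hepatocytes, passed (0.92, SE 0.26, edgeR adjusted p = 0.0465) with overlapping groups, and in 2 of the 8 fits without 1 library. The summed level of the 18 pericentral markers was 17387 to 18919 CPM in control and 7495 to 11912 CPM in Tsc1 L-/- livers, of which Cyp2e1 alone was 12802 to 13470 CPM in control and 4651 to 8257 CPM in Tsc1 L-/- livers. That of the 12 periportal markers was 9819 to 16404 CPM and 12460 to 19495 CPM. In bulk tissue, fewer cells of a zone and less RNA per cell cannot be told apart.

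Markers of the liver's other cells gave no call. This held for lists of general hepatocyte, cholangiocyte, Kupffer cell and macrophage, stellate cell, endothelial cell, lymphocyte, neutrophil, erythroid and adipose, and exocrine and smooth muscle markers, with 0 passing in each in edgeR. At an unadjusted p under 0.05, 6 of 17 stellate markers, 3 of 14 endothelial markers and 3 of 7 lymphocyte markers were lower, as were 2 of 3 exocrine and smooth muscle markers, and 2 of 10 cholangiocyte markers were higher, against 9.24% lower and 11.8% higher among all genes tested. Summed levels overlapped for hepatocyte markers, at 82212 to 106595 CPM in control and 57197 to 89735 CPM in Tsc1 L-/- livers, and for Kupffer cell and macrophage markers, at 462 to 704 CPM and 488 to 800 CPM. For lymphocyte markers they did not overlap, at 20.6 to 71.1 CPM in control and 14.1 to 19.7 CPM in Tsc1 L-/- livers. Summed levels overlapped too for the erythroid and adipose list, at 354 to 811 CPM in control and 146 to 471.5 CPM in Tsc1 L-/- livers, and for the exocrine and smooth muscle list, at 10.3 to 57.3 CPM and 9.33 to 25.8 CPM. Of the 12 genes in each, 3 (Lep, Plin1 and Retn) and 4 (Prss1, Cpa1, Pnlip and Amy2a5) were at 0 in all 8 libraries. Others were not, as the fat gene Cfd reached 48 counts in control and 3 in Tsc1 L-/- libraries, Adipoq 5 and 1, and Cnn1 of smooth muscle 72 and 3, and Cela1, a pancreatic elastase, was at 8.69 to 11.2 CPM and 5.64 to 23.1 CPM. Their part in the results was not tested. Albumin itself was at 40270 to 49138 CPM in control and 43931, 35225, 20205 and 22590 CPM in Tsc1 L-/- livers (-0.54, SE 0.26, edgeR adjusted p = 0.242).

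Genes downstream of p53 rose in part, 6 of 25 (24%, where 4.16% of all genes were) being higher and 0 lower, with a median of 0.52. Eda2r, a receptor of the tumor necrosis factor family, was at 1.1, 1.1, 0.624 and 0.703 CPM in control and 11.3, 2.9, 7.02 and 5.95 CPM in Tsc1 L-/- livers (2.95, SE 0.4, edgeR adjusted p = 0.00022). Bax, which opens the outer mitochondrial membrane in apoptosis, was at 23.3 to 30.4 CPM in control and 39.6 to 52.2 CPM in Tsc1 L-/- livers (0.84, SE 0.18, edgeR adjusted p = 0.0096). Zmat3 rose by 1.12, Plk2 by 1.55, and Sesn2 and Aen also passed, each in 2 of the 8 fits without 1 library and with overlapping groups. The best known target, the cell cycle inhibitor Cdkn1a, did not (-0.16, SE 0.68, edgeR adjusted p = 0.935), nor did Mdm2 (0.12, SE 0.16, edgeR adjusted p = 0.734), both chosen after their values were seen. Of 30 cell cycle genes 1 (3.33%, below the 6.64% of all genes) passed, Ccne1, cyclin E1, at 0.676 to 1.52 CPM in control and 3.0 to 4.3 CPM in Tsc1 L-/- livers (1.7, SE 0.28, edgeR adjusted p = 0.00121).

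In lipid and sterol synthesis, 8% of lipogenic, 3.33% of cholesterol and 8.7% of bile acid genes passed, where 6.64% of all genes did. Of 25 genes of lipogenesis, Acacb, the acetyl-CoA carboxylase that makes the malonyl-CoA that inhibits Cpt1, was higher, at 59.7, 101, 37.5 and 66.8 CPM in control and 121, 129, 248 and 154 CPM in Tsc1 L-/- livers (1.3, SE 0.27, edgeR adjusted p = 0.00766), and Agpat2 was lower (-0.52, SE 0.14, edgeR adjusted p = 0.0274). By library, the median of this list was 1.03 in Tsc1 L-/- replicate 3, -0.31 to -0.04 in the other 3 and -0.2 to 0.18 in control, and without that library Acacb was at 1.03 (edgeR adjusted p = 0.0169). In cholesterol synthesis 1 of 30 passed, Fdft1, squalene synthase, at -0.96 (SE 0.24, edgeR adjusted p = 0.0239), with 9 (30%) lower and 0 higher at an unadjusted p under 0.05, where 9.24% of all genes were lower. Fdft1 overlaps Ctsb on the opposite strand, which rose. In bile acid genes 2 of 23 passed, Cyp39a1 higher and Slco1a1 lower. Agpat2 and Fdft1 kept their calls in 4 of the 8 fits without 1 library, and Cyp39a1 and Slco1a1 in 2.

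In carbohydrate and nitrogen metabolism, 11.5% of gluconeogenic, 10.8% of glycolytic and 8.7% of urea cycle and amino acid genes passed, where 6.64% of all genes did. Pcx, pyruvate carboxylase, was at 1369, 1328, 1028 and 1126 CPM in control and 638, 777, 657 and 755 CPM in Tsc1 L-/- livers (-0.78, SE 0.16, edgeR adjusted p = 0.00664). Glud1, glutamate dehydrogenase, was at 1061, 955, 1164 and 941 CPM in control and 445, 592, 547 and 591 CPM in Tsc1 L-/- livers (-0.92, SE 0.15, edgeR adjusted p = 0.000919). Otc, of the urea cycle, rose from 250 to 287 CPM to 350 to 578 CPM (0.69, SE 0.15, edgeR adjusted p = 0.00796). All 3 separated the genotypes. Of 26 genes of gluconeogenesis and FoxO1, 1 was higher (Ppargc1b, 1.05) and 2 lower (Pcx, and Creb3l3 at -0.41). Of 37 of glycolysis and glycogen, 2 were higher (Pgam1 and Ugp2) and 2 lower (Ldha and Pgm2), and of 46 of the urea cycle and amino acid breakdown, 2 were higher (Otc and Gls2) and 2 lower (Oat and Glud1). In nucleotide synthesis and the pentose phosphate path 1 of 31 (3.23%) passed, Impdh2, lower. Of these genes, Ldha and Pgm2 passed in 2 of the 8 fits without 1 library, Ugp2 and Impdh2 in 3 and Creb3l3 in 1, and Ldha overlapped between the genotypes.

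Detoxification genes changed in both directions. Of 36 Cyp2 and Cyp3 genes and their receptors 22.2% passed, where 6.64% of all genes did. Of these, 3 were higher (Cyp2b10, Cyp2f2 and Cyp2u1) and 5 lower (Cyp2e1, Cyp2c39, Cyp2c38, Cyp2c67 and Nr1i2, which encodes the receptor Pxr), of which Cyp2c38 passed in 3 of the 8 fits without 1 library. Nr1i2 was at 147, 130, 122 and 93.2 CPM in control and 59.7, 68.1, 76.7 and 71.9 CPM in Tsc1 L-/- livers (-0.83, SE 0.14, edgeR adjusted p = 0.00172). Of 37 Nrf2 and glutathione genes 10.8% passed, of which Gstm1 and Gsta2 rose and Mgst1 and Aox1 fell. Gstm1 was at 453, 356, 519 and 328 CPM in control and 822, 790, 979 and 821 CPM in Tsc1 L-/- livers (1.04, SE 0.18, edgeR adjusted p = 0.00157), although reads may be shared with other Gstm genes. Mgst1, a microsomal transferase, fell from 2200 to 2606 CPM to 1246 to 1610 CPM (-0.81, SE 0.13, edgeR adjusted p = 0.00116).

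Secreted and growth-related genes completed the lists. Hp, the hemoglobin-binding acute-phase protein haptoglobin, was at 4344, 3680, 3203 and 3004 CPM in control and 846, 1450, 1925 and 788 CPM in Tsc1 L-/- livers (-1.51, SE 0.29, edgeR adjusted p = 0.00485). Hamp2, a hepcidin gene, rose by 3.4 (SE 0.75, edgeR adjusted p = 0.017), and these were the only calls among 30 acute-phase genes (6.67%, where 6.64% of all genes passed). Of 33 genes of the growth hormone axis (15.2%), 1 was higher (Stat5b) and 4 lower (Elovl3, Acot3, Slco1a1 and Hsd3b5), of which Stat5b passed in 1 and Hsd3b5 in 2 of the 8 fits without 1 library. Of 30 genes of the unfolded protein response 2 (6.67%) were higher, Eif2ak3, the sensor kinase Perk, at 0.73 (SE 0.17, edgeR adjusted p = 0.0142), and Ero1l at 0.51 (SE 0.13, edgeR adjusted p = 0.0212), which passed in 4 of the 8 fits without 1 library. Of 15 fetal liver genes 1 (6.67%) was higher, Igf2bp3, at 0.117 to 0.979 CPM in control and 1.03 to 6.98 CPM in Tsc1 L-/- livers (3.12, SE 0.63, edgeR adjusted p = 0.00704). The median of this list was 0.95. At an unadjusted p under 0.05 in edgeR, 7 (46.7%) were higher and 2 (13.3%) lower, where 11.8% and 9.24% of all genes tested were. None of 19 clock genes passed in edgeR, with 3 (15.8%) higher and 0 lower at an unadjusted p under 0.05, where 11.8% of all genes tested were higher.

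The response to Tsc1 loss was also read from livers labelled DKO against those labelled Cpt2 L-/-, which are other libraries and in which the levels of Cpt2 overlapped those of control. There 10.9% of genes tested were higher and 7.4% lower. Of the 906 genes, 377 passed in the same direction there, which is 41.6% of the first set and 15.1% of the second. Of the 568 higher genes, 282 (49.6%) were higher again, and of the 338 lower genes, 95 (28.1%) were lower again. By sign alone, 85.0% of the higher and 79.0% of the lower genes pointed the same way. The interaction term, which tests whether the effect of Tsc1 loss differs between the 2 comparisons, passed for 324 genes (2.38%) of those tested, 96 of them among the 906. With 24 libraries in the fit, 142 genes passed in both comparisons and 65 in the interaction.

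Lysosomal genes and Rragd were among those that recurred. In the lysosomal list 16 of the 21 that passed did so in both comparisons in the same direction, beside 49.6% of all higher genes, and 0 of the 62 had an interaction that passed, beside 2.38% of all genes tested. Rragd was at 4.6, 4.63, 4.68 and 5.36 CPM in Cpt2 L-/- and 70.1, 67.9, 72.9 and 56.9 CPM in DKO livers (3.79, SE 0.27, edgeR adjusted p = 3.8e-07). Ctsz was at 347 to 404 CPM in Cpt2 L-/- and 679 to 903 CPM in DKO livers (1.03, SE 0.14, edgeR adjusted p = 0.000104), and Gpx3 at 10.7 to 25.8 CPM and 365 to 648 CPM (5.13, SE 0.48, edgeR adjusted p = 2.6e-05). Renbp, the renin-binding protein, rose by 3.67 in the first comparison (SE 0.27, edgeR adjusted p = 8.5e-07) and by 3.56 in the second (SE 0.26, edgeR adjusted p = 3.8e-07), and was chosen after its values were seen. For each of these genes the 4 DKO libraries lay above the 4 Cpt2 L-/- libraries.

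Of the 26 Pparα targets that passed in the first comparison, 25 of them lower, 2 passed in the same direction in the second. This stands beside 28.1% of all lower genes and 41.6% of all genes that passed. Acaa1b was at 4886, 6722, 7170 and 6501 CPM in Cpt2 L-/- and 4810, 6537, 5569 and 6806 CPM in DKO livers (-0.09, SE 0.2, edgeR adjusted p = 0.795), and its interaction passed (1.58, SE 0.29, edgeR adjusted p = 0.00896). Pex11a showed the same, with a fold change of -0.15 (SE 0.18, edgeR adjusted p = 0.6) in DKO against Cpt2 L-/- livers and an interaction of 1.24 (SE 0.26, edgeR adjusted p = 0.017). For Acadm the interaction did not pass (0.79, SE 0.24, edgeR adjusted p = 0.0881). Over the list, 3 of 52 interactions passed, beside 2.38% of all genes tested. The median in DKO against Cpt2 L-/- livers was -0.15, beside -0.78 in Tsc1 L-/- against control livers.

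Cdh1 and Cyp2f2, periportal genes that rose in Tsc1 L-/- against control livers, had a different effect in DKO against Cpt2 L-/- livers, as labelled. Cdh1 was at 24.6, 23.5, 20.3 and 18.3 CPM in Cpt2 L-/- and 20.2, 21, 18.1 and 14.3 CPM in DKO livers, and its interaction was -2.65 (SE 0.34, edgeR adjusted p = 0.000867). That of Cyp2f2 was -1.38 (SE 0.26, edgeR adjusted p = 0.0105). In 17 genes the directions were opposite and passed in both. Cyp2c39 was at 3.79, 2.03, 2.78 and 1.45 CPM in Cpt2 L-/- and 106, 78.7, 59.9 and 91.5 CPM in DKO livers (5.06, edgeR adjusted p = 0.00658), after its fall in Tsc1 L-/- livers. Gls2 rose in Tsc1 L-/- against control livers and fell between Cpt2 L-/- livers, at 118 to 176 CPM, and DKO livers, at 40.4 to 63.5 CPM (-1.5, edgeR adjusted p = 0.00164). Fst, follistatin, an antagonist of activin chosen after its values were seen, was at 1.3 to 2.14 CPM in control, 5.61 to 10.4 CPM in Tsc1 L-/-, 3.79 to 7.6 CPM in Cpt2 L-/- and 1.22 to 2.71 CPM in DKO livers.

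**Figure D5:**
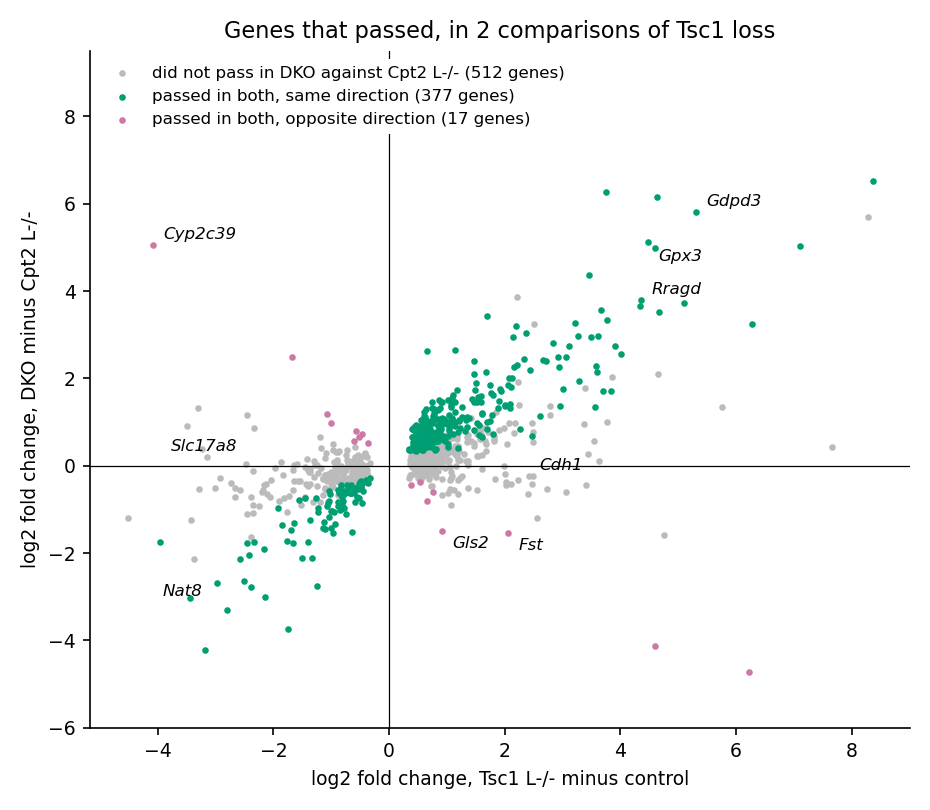
Log2 fold change of the 906 genes that passed in Tsc1 L-/- minus control livers against their log2 fold change in DKO minus Cpt2 L-/- livers, 1 point a gene. The 377 genes that passed in both in the same direction include Rragd, Gpx3, Gdpd3 and Nat8 (values of genes with 0 counts in a group are fitted), and the 17 in opposite directions include Cyp2c39, Gls2 and Fst.

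Over all genes, 1655 (12.1%) of those tested had no overlap between the 4 control and the 4 Tsc1 L-/- libraries. Of the 906 that passed, 419 did so in each of the 8 fits that left out 1 library. A log2 fold change of at least 1 in either direction was reached by 368, of which 235 were higher and 133 lower. Fitting only the 8 libraries left 466 genes and fitting all 24 left 400, while DESeq2 called 1315. Of the named genes, 31 lost their call with the 8 libraries alone, among them Asns, Nupr1, Col5a2, Cyp46a1, Acot3, Elovl3, Slc22a3, Acacb, Aox1 and Hamp2. With all 24 libraries 29 lost it, among them Eif4ebp1, Pcx, Ppargc1b, Gstm1, Aox1, Cyp2f2, Eif2ak3, Bax and Lgr5.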

How the data were processed

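Stranded, poly(A)-selected RNA of fasted livers was sequenced as single 75-base reads. The authors deposited a table of read counts per gene for 24 libraries, whose coordinates are those of GRCm38. The submitters' processing notes name STAR 2.5, HTSeq 0.6.1, Bowtie 0.12.2, TopHat, STAR-Fusion, DESeq2 and edgeR without their roles, and mm8 and mm9 as builds. The strand setting of the counting is not given in the sources used here. Groups were taken from the labels, all columns were mapped to a sample, and a second table of FPKM values was not used here.

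Counts of the 16 control, Tsc1 L-/-, Cpt2 L-/- and DKO libraries were filtered (filterByExpr, minimum count 10, minimum total 15), normalized by TMM and fitted with edgeR 4.0.16 in R 4.3.3 by the robust quasi-likelihood method without covariates, with p-values adjusted over all genes by Benjamini-Hochberg and a threshold of 0.05. The SE is the log2 fold change divided by the root of F. On simulated counts for 13445 genes, edgeR recovered 70 of 98 genes changed by 1 and 82 of 98 changed by 2 on the log2 scale, with 5 false calls. No pair of libraries of a group agreed within sampling noise (mean chi-square per gene 33.8 to 125), so none was counted as a repeat deposit. At these depths 3 counts were 0.156 to 0.207 CPM in a library, and fold bounds used the mean over the control libraries, 0.181 CPM.

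The comparison, the 38 gene lists and the rule for named genes were chosen with earlier results of these data known. Named genes were Tsc1, Tsc2, Tbc1d7 and Cpt2, the 12 largest rises and 12 largest falls among genes that passed, did not overlap between the groups and averaged at least 1 CPM (without Gm and Rik symbols), and in each list up to 4 members that passed with the smallest p, or, where fewer than 2 passed, also the 2 with the highest level. Alternatives were RLE size factors, no filter, DESeq2 1.42.0, the 8 libraries alone, all 24 libraries, a replicate block, a minimum log2 fold change of 1, and leaving out each library in turn. Some genes that the rule names are not reported here.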

Additional observations from a re-analysis of the deposited data

Results flagged for a closer look

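Of 244 sets of 4 values of a named gene in a group, 16 held a library far from the other 3 (a gap over Dixon's 95% critical value), and chance gives about 1 in 20. Tsc1 L-/- replicate 1 was far above the others for Col5a2 at 202 CPM, Cyp2c39 at 63.2 CPM, Nupr1 at 30.2 CPM, Eprs at 195 CPM, Zmat3 at 33.1 CPM and Plk2 at 27.8 CPM. Replicate 2 stood apart for Fam107a at 119 CPM. Replicate 3 did so for Gstm1 at 979 CPM and Hsd3b5 at 3.54 CPM, and replicate 4 for Elovl3 at 31 CPM and Aox1 at 144 CPM. Among controls, replicate 2 stood apart for Lrp2 at 1.17 CPM and Lipg at 82.5 CPM, replicate 3 for Col5a2 at 8.27 CPM, and replicate 4 for Psat1 at 1.7 CPM and Ighm at 28.8 CPM.

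The effect of Tsc1 loss differed between the 2 comparisons, by the interaction term of edgeR, for 17 of the 122 named genes. Among all genes tested it did for 2.38%. Most named genes were chosen by their values in Tsc1 L-/- against control livers, which enter the interaction. The count of 17 is therefore no measure of how often the effects differ. The groups are as labelled, and the levels of Cpt2 in Cpt2 L-/- and DKO libraries overlapped those of control. The log2 fold change of DKO against Cpt2 L-/- livers minus that of Tsc1 L-/- against control livers was above 0 for Cyp2c39 (9.15), Myom3 (4.41), Tnnt2 (3.35), Slc17a8 (2.52), Acaa1b (1.57), Pex11a (1.24), Aox1 (1.19), Glud1 (0.93), Ech1 (0.89) and Impdh2 (0.702). It was below 0 for Cdh1 (-2.65), Gls2 (-2.41), Ppargc1b (-1.59), Cyp2f2 (-1.38), Tsc1 (-0.87), Ulk1 (-0.78) and Gabarapl1 (-0.77).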

How the results depend on the processing

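No named gene that passed changed direction under an alternative, and 419 of the 906 genes passed in every fit without 1 library. The minimum fold change lowers counts by construction, and the cause of the other shifts was not tested. With RLE size factors 894 genes passed. Without the filter 776 did, with 5 Atf4 targets. DESeq2 gave 540 lower genes, 748 interactions and 17 peroxisomal genes. With the 8 libraries alone, 304 genes were higher and 162 lower (466 in all), with 2 Atf4, 13 lysosomal, 3 proton pump, 9 Pparα, 5 mitochondrial, 6 peroxisomal, 2 ketogenic and 3 pericentral genes. With 24 libraries, 271 were higher and 129 lower (400), 1065 passed in DKO against Cpt2 L-/- livers, 65 in the interaction and 142 in both comparisons, with 6 mTORC1, 1 proton pump, 8 Pparα, 3 mitochondrial, 6 peroxisomal, 0 ketogenic and 3 pericentral genes (edgeR). At a log2 fold change of at least 1, 235 were higher and 133 lower (368), 700 passed in DKO against Cpt2 L-/- livers, 188 in the interaction and 129 in both, with 4 mTORC1, 5 lysosomal, 0 proton pump, 8 Pparα, 1 mitochondrial, 4 peroxisomal and 0 ketogenic genes (edgeR).

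Without 1 library, 355 (control replicate 3) to 592 (Tsc1 L-/- replicate 3) genes were higher, 207 (control replicate 2) to 375 (Tsc1 L-/- replicate 3) lower and 583 to 967 changed. The lists had 8 to 9 mTORC1, 4 to 10 Atf4, 18 to 22 lysosomal, 3 to 5 proton pump, 17 to 29 Pparα, 6 to 11 mitochondrial, 9 to 13 peroxisomal, 3 to 5 ketogenic, 4 to 7 p53 and 4 to 7 pericentral genes. Over these fits the log2 fold change crossed 0 for 11 of the named genes, none of which passed: Rpl13a (-0.164 to 0.062), Aars (-0.177 to 0.001), Tef (-0.028 to 0.107), Nr1d2 (-0.023 to 0.141), Stab1 (-0.142 to 0.021), Lpin1 (-0.320 to 0.479), Cd5l (-0.022 to 0.283), H6pd (-0.067 to 0.152), Clec4f (-0.074 to 0.235), Reln (-0.261 to 0.050) and Cela1 (-0.314 to 0.495).

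With a replicate block, 808 genes passed (498 higher, 310 lower), and 7 of the named genes lost their call, against 31 with the 8 libraries alone and 29 with all 24. Libraries with the same number did not deviate together (correlations -0.16, 0.09, 0.17 and 0.02, none of the 4 best with its own number), so the numbers were not taken as pairs. Depth limits genes near 0.156 to 0.207 CPM, the level of 3 counts.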
